A study of Mus musculus with 6 samples.

Results

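The transcripts described here are 34 mouse genes of the NRF2 pathway and of antioxidant defence, chosen by name from a list of antioxidant enzymes, NRF2 targets and NRF2 regulators. All 34 names were found once each among the 54532 genes of the count tables, and 33 of them passed the filter on low counts that left 14129 genes for testing. The list was drawn up with earlier results of these data known, so counts over its members are a description of the list.

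The cells were YAMC, a mouse line derived from colon and labelled wild type. It is conditionally immortalised through a thermolabile SV40 large T antigen (tsA58) driven by the H-2Kb promoter, which interferon-gamma induces, and interferon-gamma and 33 °C were the culture conditions of all libraries. Cells of 3 libraries had been given 2'-fucosyllactose (2'-FL), a milk oligosaccharide that carries fucose, for 6 h at 20 µg/ml. In the 3 control libraries they were untreated, for which no time is given. A series title that names the EGF receptor and protection from colitis, and a design note on direct effects on epithelial cells, give the question: what the sugar changes in the cells themselves. Values per library are given in the order of replicates 1 to 3 of each group.

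NRF2, encoded by Nfe2l2, is a transcription factor held at low level by KEAP1, an adaptor that hands it to a ubiquitin ligase for destruction. Oxidants and electrophiles modify KEAP1, NRF2 then accumulates, pairs with a small MAF protein and binds antioxidant response elements in the promoters and enhancers of its targets. These targets make glutathione, reduce thioredoxin and quinones, supply NADPH, break down haem and store iron. In gut epithelium the pathway is known for limiting oxidative damage during inflammation.

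Total counts ranged from 19978583 to 25251187 per library, and mitochondrial genes took between 0.366 and 0.618% of them. The defining colonocyte genes were nearly absent: Cdx2, Car1, Slc26a3 and Tff3 had 0 counts in all libraries, and 9 colonocyte and goblet cell markers summed to between 0.565 and 1.59 CPM (counts scaled to a common library total). The simple epithelial keratins Krt7, Krt8, Krt18 and Krt19 summed to 1006, 1259 and 1038 CPM after 2'-FL, against 1035, 952 and 904 CPM in the control group. These sums overlapped between the groups, but all 4 keratins had log2 fold changes (2'-FL minus control) above 0, from 0.07 (Krt18) to 0.25 (Krt8). The 4 mesothelial markers summed to between 3028 and 3271 CPM. The sum of 7 fibroblast markers was 7142, 8313 and 7331 CPM after 2'-FL, against 6952, 6676 and 6845 CPM in the control group. Of 6 smooth muscle markers the sum was 232, 486 and 378 CPM after 2'-FL, against 199, 209 and 145 CPM in the control group. Both sums were thus higher in every 2'-FL library than in any control. Col1a1 and Col3a1, at means of 3555 and 2695 CPM, held most of the fibroblast sum. By log2 fold change (2'-FL minus control), 4 fibroblast markers lay above 0 and 3 below (Pdgfra -0.27, Pdgfrb -0.29 and Dcn -0.07). Acta2, at a mean of 253 CPM, held most of the smooth muscle sum, and all 5 tested smooth muscle markers lay above 0. Of 6 leukocyte markers, Ptprc, Adgre1 and Itgam had 4, 1 and 1 counts over all libraries, whereas Csf1r had 135 and Cd68 had 3094. Of 4 endothelial markers, Cdh5 and Pecam1 had 12 and 37 counts, whereas Kdr had 610 and Tek had 1537. By library, leukocyte markers summed to between 24.3 and 29.0 CPM after 2'-FL and between 20.97 and 28.7 CPM without it, and endothelial markers to between 15.5 and 18.9 CPM and between 13.2 and 19.7 CPM. On principal components of log2 CPM, 2'-FL replicate 2 stood apart on the first and control replicate 1 on the second.

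The sequences that NRF2 is known to use were looked for in the promoters of the members, as a description of the letters present. RefSeq promoters (build GRCm38.p6, from 250 bases before to 50 bases after the start site) were given for 27 of the 34 genes. The core of the antioxidant response element, searched as TGACNNNGC on both strands, occurred in 9 of these 27, against 13.991% of 27025 genes with a promoter in the same table. By window, it occurred in 9 of the 35 promoters of the members and in 12.392% of all 32851 promoters. The 9 genes were Nfe2l2, Gclm, Txnrd1, Srxn1, Prdx1, G6pdx, Pgd, Sod1 and Mt2, whereas the Nqo1 promoter had no match in this window. Hmox1, Gclc, Gsr, Gsta4, Prdx6, Abcc1 and Sod3 had no promoter given and were not searched. The 6 windows printed here are those whose match lies on the opposite strand, each 5′ to 3′ on the strand of the gene. The match is in capitals and so reads GCNNNGTCA, with 12 bases on either side. In Nfe2l2, Pgd and Mt2 the match lay on the strand of the gene, and those windows are not printed here.
Txnrd1 (chr10:82859102-82859134, plus strand): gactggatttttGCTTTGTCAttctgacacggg
Prdx1 (chr4:116685454-116685486, plus strand): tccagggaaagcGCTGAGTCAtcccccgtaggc
Gclm (chr3:122245411-122245443, plus strand): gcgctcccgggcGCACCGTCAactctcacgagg
Srxn1 (chr2:152105540-152105572, plus strand): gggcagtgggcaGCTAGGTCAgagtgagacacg
Sod1 (chr16:90220694-90220726, plus strand): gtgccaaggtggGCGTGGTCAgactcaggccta
G6pdx (chrX:74428917-74428949, minus strand): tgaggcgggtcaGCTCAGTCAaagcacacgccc

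As a group the members were well expressed and differed little between 2'-FL and control. Normalised by TMM (trimmed mean of M-values) library factors, the tested members ranged from 10.4 CPM for Osgin1 to 560.2 CPM for Prdx1, with a median of 113 CPM against 27.5 CPM over all tested genes. Together the 34 genes took 0.482, 0.475 and 0.482% of counts with 2'-FL and 0.460, 0.498 and 0.466% in controls, and the groups overlapped. In bulk RNA of this kind, fewer cells that express a gene and less RNA of it per cell cannot be told apart. Of the 33 tested members, 23 had log2 fold changes above 0 (2'-FL minus control) and 10 below, or 69.7% above against 48.4% of all tested genes. The median was 0.06 over the members and -0.01 over all tested genes. Members spanned from -0.20 (Gpx4) to 0.28 (Nqo1) on this scale, and 21 lay within 0.1 of 0.

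None of the 33 passed the test. By the quasi-likelihood test of edgeR, adjusted by Benjamini-Hochberg, 0 members were called and 0% of all 14129 genes. The DESeq2 Wald test called 0 members and 0.262% of all genes, and limma-voom called 0 of either. At an unadjusted edgeR p under 0.05 stood 4 members that were higher with 2'-FL (Nqo1, Hmox1, Gsr and Sod1), where 3.36% of all genes stood on that side, and 1 that was lower (Gpx4), where 4.54% did. All 2'-FL libraries lay above all controls for 5 members (these 4 and Gclc), against 6.74% of all genes, and below all controls for 0 members, against 6.31%. The 95% interval of the log2 fold change lay between -0.5 and 0.5 for 32 of the 33, all but Osgin1. No label says that replicates came from separate cultures, so they may be technical, and the p-values then reflect only how far these libraries spread.

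**Figure D1:**
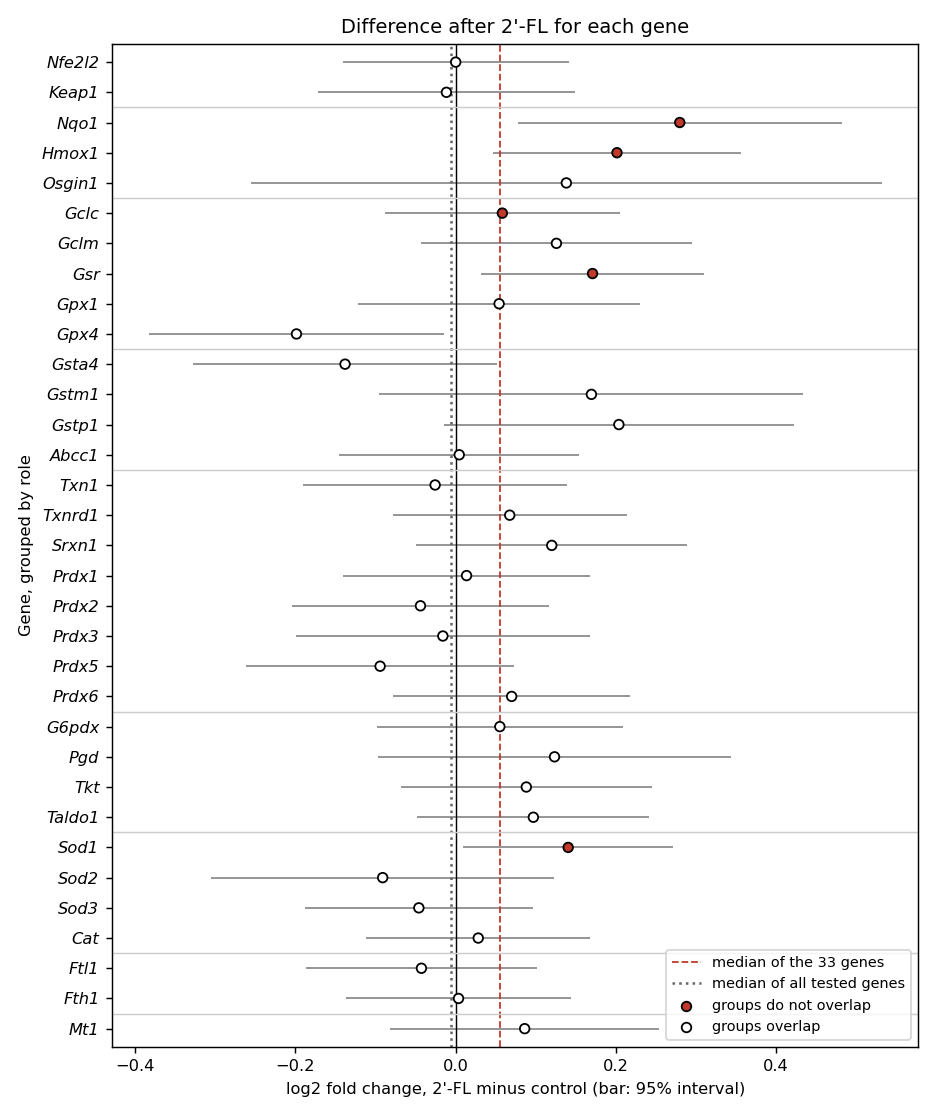
log2 fold change (2'-FL minus control) of the 33 tested genes, by role, with 95% intervals from the edgeR fit. Filled points mark the 5 genes, Nqo1, Hmox1, Gclc, Gsr and Sod1, whose 2'-FL libraries all lie above the controls; the dashed and dotted lines are the medians of the members (0.06) and of all tested genes (-0.01).

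The regulators themselves were level. Nfe2l2, the transcript of NRF2 (chromosome 2, 75675513 to 75704641, minus strand, GRCm38), stood at 179, 168 and 161 CPM with 2'-FL and at 163, 177 and 169 CPM in controls. The groups overlapped, with all control values inside the treated range. The log2 fold change was 0.00 ± 0.07 (SE), with a 95% interval from -0.14 to 0.14. Keap1 (chromosome 9, 21229730 to 21239361, minus strand) stood at 59.7, 58.7 and 54.4 CPM with 2'-FL and at 60.99, 53.7 and 59.7 CPM in controls, again with overlap. Its log2 fold change was -0.01 ± 0.08 (SE), with an interval from -0.17 to 0.15. NRF2 is regulated mainly as a protein, which these counts do not measure.

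Among enzymes often read as NRF2 reporters, Nqo1 and Hmox1 were the members with the smallest p. Nqo1, the quinone reductase that passes electron pairs from NADPH or NADH to quinones (chromosome 8, 107388225 to 107403206, minus strand), stood at 20.8, 22.2 and 21.3 CPM with 2'-FL and at 17.99, 18.3 and 16.7 CPM in controls. All 3 treated libraries lay above the controls, with 2'-FL replicate 2 highest. The treated mean was 21.5 ± 0.721 CPM and the control mean 17.7 ± 0.858 CPM (SD, n = 3 each). The log2 fold change was 0.28 ± 0.09 (SE), with an interval from 0.08 to 0.48 and an edgeR adjusted p of 0.497. Hmox1, haem oxygenase 1, which cleaves haem to biliverdin, iron and carbon monoxide (chromosome 8, 75093621 to 75100589, plus strand), stood at 87.5, 101 and 88.02 CPM with 2'-FL and at 77.97, 80.1 and 82.8 CPM in controls. Its groups did not overlap either, and 2'-FL replicate 2 lay well above the other treated libraries. The means were 92.3 ± 7.88 against 80.3 ± 2.45 CPM (SD, n = 3 each). For Hmox1 the log2 fold change was 0.20, its SE 0.07 and the edgeR adjusted p 0.503. The change was 0.13 without 2'-FL replicate 2. Osgin1, an NRF2-inducible growth inhibitor and the least abundant tested member, spanned 8.80 to 14.3 CPM with 2'-FL and 8.15 to 11.7 CPM in controls. Its log2 fold change was 0.14 ± 0.18 (SE), and -0.11 without 2'-FL replicate 2, the library that held its highest value.

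None of the 5 glutathione genes passed the test, and their log2 fold changes were above 0 for 4 (Gclc, Gclm, Gsr and Gpx1) and below 0 for Gpx4. Gclc, the catalytic subunit of glutamate-cysteine ligase, the first and rate-limiting step of glutathione synthesis, stood at 51.6, 52.5 and 50.9 CPM with 2'-FL and at 48.96, 49.4 and 50.5 CPM in controls. Its groups did not overlap, but the difference was small, at a log2 fold change of 0.06 ± 0.07 (SE). The modifier subunit Gclm stood at 53.6, 62.5 and 56.8 CPM with 2'-FL and at 52.7, 56.1 and 49.7 CPM in controls, with overlap and a log2 fold change of 0.13 ± 0.08 (SE) that was 0.06 without 2'-FL replicate 2. Glutathione reductase, Gsr (chromosome 8, 33652523 to 33698163, plus strand), which returns oxidised glutathione to its reduced form, stood at 97.4, 107 and 98.7 CPM with 2'-FL and at 87.7, 92.7 and 88.5 CPM in controls. Every treated library lay above every control for Gsr, at a log2 fold change of 0.17, an SE of 0.07 and an edgeR adjusted p of 0.549.

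Gpx4, which reduces lipid hydroperoxides in membranes and restrains ferroptosis, was the member with the lowest log2 fold change. Gpx4 (chromosome 10, 80047166 to 80056439, plus strand) stood at 159.8, 134 and 168 CPM with 2'-FL and at 168, 194 and 168 CPM in controls. The groups met at the upper treated and lower control values, with 2'-FL replicate 2 far below and control replicate 2 far above the rest. The treated mean was 154 ± 17.8 CPM and the control mean 177 ± 15.01 CPM (SD, n = 3 each). The fit gave a log2 fold change of -0.20, an SE of 0.09 and an edgeR adjusted p of 0.594, and the change was -0.11 without 2'-FL replicate 2. Reads of the pseudogene Gpx4-ps2 amounted to 4.19% of those of Gpx4, so that the counting may have split reads between them. Gpx1, the abundant cytosolic glutathione peroxidase, stood at 180.4, 158 and 192 CPM with 2'-FL and at 155, 185 and 171 CPM in controls, with wide overlap.

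The glutathione transferases, which conjugate glutathione to reactive compounds, also differed in direction among themselves. Gstp1 stood at 22.7, 20.1 and 24.03 CPM with 2'-FL and at 19.3, 20.7 and 17.9 CPM in controls, and 1 treated library lay within the control range. Its log2 fold change was 0.20 ± 0.10 (SE), and its copies Gstp2, Gstp3 and Gstp-ps held counts equal to 5.05% of its own. Gsta4, specialised for lipid aldehydes such as hydroxynonenal, stood at 54.7, 47.1 and 50.7 CPM with 2'-FL and at 48.9, 59.99 and 58.8 CPM in controls. It was among the lower members, at a log2 fold change of -0.14 ± 0.09 (SE), with overlap through control replicate 1. Gstm1, at 14.8 CPM on average, had 0.17 ± 0.12 (SE), and the efflux pump Abcc1, which exports glutathione conjugates and averaged 113 CPM, had 0.00 ± 0.07 (SE).

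**Figure D2:**
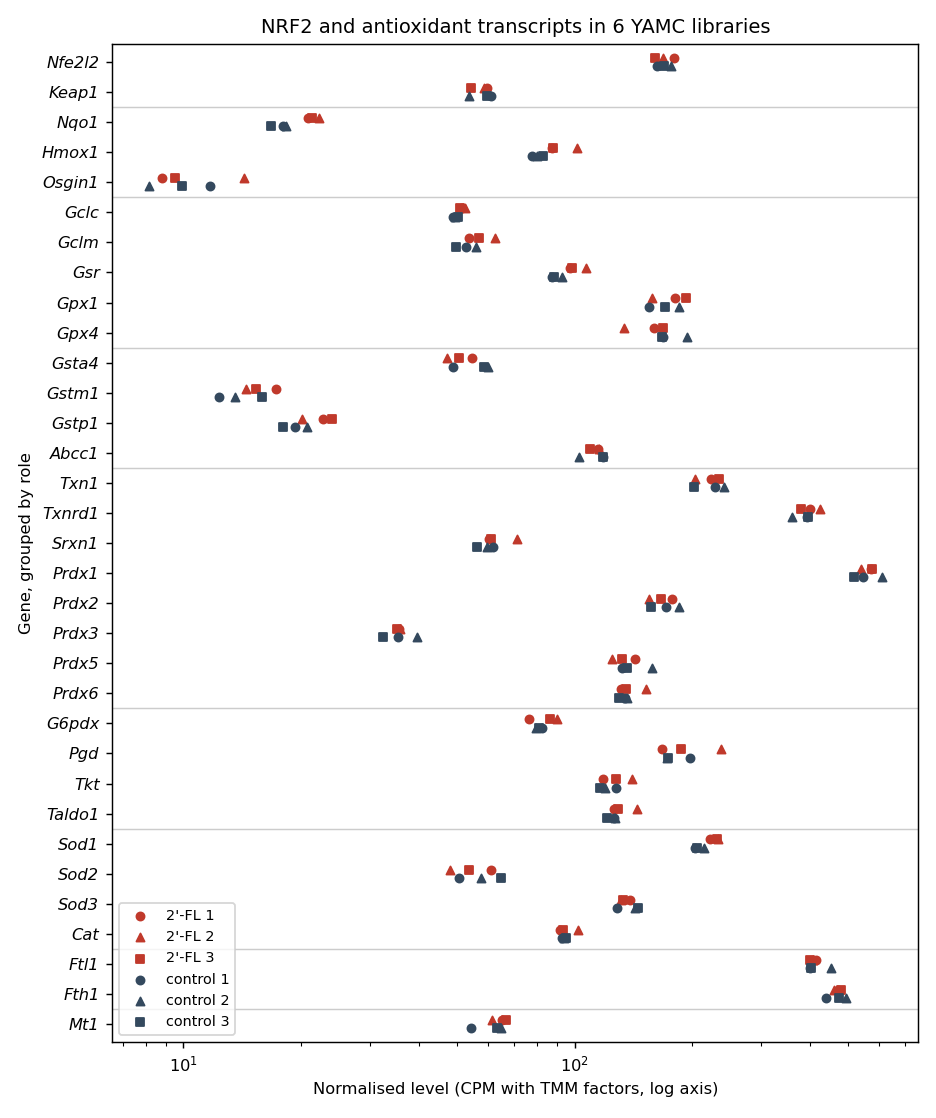
Normalised level (CPM with TMM factors, log axis) of the 33 tested genes in each of the 6 libraries, red for 2'-FL and dark for control, with a marker shape for each replicate number and lines between roles. The most abundant gene is Prdx1 and the least abundant Osgin1, and for most genes red and dark points overlap.

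The thioredoxin and peroxiredoxin genes included Prdx1, the member with the highest CPM, and none passed the test. Prdx1, a cytosolic peroxiredoxin that removes hydrogen peroxide, stood at 572, 541 and 576 CPM with 2'-FL and at 545, 610.4 and 517 CPM in controls. Controls spanned the whole treated range, and the log2 fold change was 0.01 ± 0.07 (SE). Thioredoxin itself, Txn1, stood at 223, 203 and 233 CPM with 2'-FL and at 229, 241 and 202 CPM in controls, with a log2 fold change of -0.03 ± 0.08 (SE). Txnrd1, the selenoprotein that reduces thioredoxin with NADPH, stood at 399, 424 and 380.1 CPM with 2'-FL and at 394, 359 and 396 CPM in controls. Its groups overlapped, and the log2 fold change was 0.07 ± 0.07 (SE) with an interval from -0.08 to 0.21, and 0.02 without control replicate 2 and 0.03 without 2'-FL replicate 2. Sulfiredoxin, Srxn1, which repairs overoxidised peroxiredoxins, stood at 60.6, 71.3 and 61.3 CPM with 2'-FL and at 61.95, 59.7 and 56.3 CPM in controls. Only 2'-FL replicate 2 stood above the highest control, and the log2 fold change of 0.12 ± 0.08 (SE) was 0.04 without that library.

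The other peroxiredoxins lay on both sides of 0, at mean levels over the 6 libraries of 169 CPM for Prdx2, 35.6 CPM for Prdx3, 138 CPM for Prdx5 and 137 CPM for Prdx6. Prdx6, which also has phospholipase activity, stood at 0.07 ± 0.07 (SE) on the log2 scale and at 0.0024 without 2'-FL replicate 2, while mitochondrial Prdx3 had -0.02 ± 0.09, Prdx2 had -0.04 ± 0.07 and Prdx5 had -0.09 ± 0.08. In these 8 thioredoxin system genes, 4 lay above and 4 below 0 and the median was -0.00. The spans of Prdx2 and Prdx5 overlap those of genes on the other strand, Junb and Rnaseh2a for Prdx2 and Trmt112 for Prdx5, and nothing states if reads were counted by strand, so reads of overlapping genes cannot be told apart.

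The pentose phosphate genes, which supply NADPH for these reductases, were all above 0 by small amounts, and each log2 fold change was lower without 2'-FL replicate 2. Pgd, 6-phosphogluconate dehydrogenase, stood at 167, 236 and 188 CPM with 2'-FL and at 197, 172 and 173 CPM in controls. The treated group held both the lowest and the highest value of Pgd, and its log2 fold change of 0.12 ± 0.10 (SE) was -0.03 without 2'-FL replicate 2. Transaldolase, Taldo1, stood at 126, 144 and 129 CPM with 2'-FL and at 126, 127 and 121 CPM in controls, a log2 fold change of 0.10 ± 0.07 (SE) that was 0.03 without that library. Transketolase, Tkt, averaged 125 CPM with 0.09 ± 0.07 (SE), and G6pdx, the enzyme of the committed step, averaged 82.8 CPM with 0.06 ± 0.07 (SE). Without 2'-FL replicate 2 they stood at 0.02 and 0.00. G6pdx overlaps Ikbkg on the other strand.

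Of the enzymes that act on superoxide and hydrogen peroxide, only Sod1 had groups that did not overlap. Sod1, the cytosolic copper and zinc superoxide dismutase (chromosome 16, 90220754 to 90226329, plus strand), stood at 222, 233 and 231 CPM with 2'-FL and at 203, 215 and 205 CPM in controls. The means were 229 ± 6.08 against 208 ± 6.23 CPM (SD, n = 3 each). The edgeR adjusted p was 0.598 for a log2 fold change of 0.14 with an SE of 0.06. That change stayed between 0.12 and 0.17 when each library was left out in turn. Its span overlaps that of Scaf4 on the other strand. The mitochondrial manganese enzyme Sod2, which inflammatory signals are known to induce, spanned 47.97 to 60.98 CPM with 2'-FL and 50.7 to 65.01 CPM in controls, at -0.09 ± 0.10 (SE). The secreted Sod3 averaged 137 CPM with a log2 fold change of -0.05 ± 0.07 (SE), and catalase, Cat, averaged 94.9 CPM with 0.03 ± 0.07 (SE).

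Ferritin stores iron in a redox-safe form, and both of its chains were abundant and level. Fth1, the ferroxidase heavy chain, stood at 472, 462 and 479.6 CPM with 2'-FL and at 439.7, 495 and 474 CPM in controls. Ftl1, the light chain, stood at 414, 408 and 399.6 CPM with 2'-FL and at 401, 454 and 403 CPM in controls. Controls spanned the treated values of Fth1, and the log2 fold changes were 0.00 ± 0.07 for Fth1 and -0.04 ± 0.07 for Ftl1 (SE).

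Metallothioneins, small cysteine-rich proteins that bind zinc and copper and scavenge oxidants, are given here by Mt1 and Mt2, whose counts lay far apart. Mt1 stood at 65.1, 61.7 and 66.7 CPM with 2'-FL and at 54.3, 64.7 and 63.2 CPM in controls. Its log2 fold change was 0.09 ± 0.08 (SE), and 0.01 without control replicate 1, the library with its lowest value. Mt2, its neighbour on chromosome 8 (94172664 to 94173568, plus strand, against 94179082 to 94180327 for Mt1), was the 1 member below the filter. Mt2 had 10, 3 and 5 counts with 2'-FL and 0, 1 and 0 counts in controls. Those are 18 counts against 1, a ratio of 16.1 after library totals with an exact 95% counting interval from 2.54 to 669, which covers counting error only, treats reads as independent molecules and leaves out the spread between libraries. Per kilobase of listed gene length, Mt1 averaged 50.3 and Mt2 averaged 0.239 CPM. Bowtie2 is the aligner named, but how reads were counted is not stated. Whether the low count of Mt2 is a low transcript level or comes from alignment or counting was not tested. Both promoters hold matches to the core of the metal response element, which the zinc-sensing factor MTF1 is known to bind, so the windows are shown whole.

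The core was searched as TGCACNC or TGCGCNC on both strands, where matches may overlap each other. It occurred in the promoters of 7 of the 27 members with a promoter given, against 28.233% of all genes in the table. In the windows of 300 bases, 5′ to 3′ on the plus strand of GRCm38.p6, capitals mark the 3 matches of Mt1 and the 4 of Mt2.
Mt1 (chr8:94178839-94179138): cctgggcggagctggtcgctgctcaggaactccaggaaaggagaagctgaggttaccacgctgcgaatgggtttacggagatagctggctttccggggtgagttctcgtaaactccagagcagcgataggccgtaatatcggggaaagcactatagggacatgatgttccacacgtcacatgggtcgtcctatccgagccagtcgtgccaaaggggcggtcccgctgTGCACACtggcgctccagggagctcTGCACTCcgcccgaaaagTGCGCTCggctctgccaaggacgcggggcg
Mt2 (chr8:94172368-94172667): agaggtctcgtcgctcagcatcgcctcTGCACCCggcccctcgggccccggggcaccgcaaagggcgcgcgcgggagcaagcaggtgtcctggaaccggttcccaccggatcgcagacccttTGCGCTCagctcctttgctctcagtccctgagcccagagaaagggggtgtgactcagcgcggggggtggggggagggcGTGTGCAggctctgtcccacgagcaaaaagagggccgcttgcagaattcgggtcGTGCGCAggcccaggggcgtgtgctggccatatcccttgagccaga

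In order of level per kilobase of listed gene length, the ferritins led the list. Fth1 averaged 543 CPM per kilobase, Ftl1 308, Txn1 211, Prdx1 184 and Gpx1 120.5. At the other end stood Gclm at 8.78, Abcc1 at 7.49, then Sod2, Osgin1 at 3.88 and Mt2 at 0.239 CPM per kilobase. The length is that listed in the files, which may exceed the transcript that the cells make, so this order is approximate.

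Across libraries the members varied little. The standard deviation of log2 CPM within groups had a median of 0.09 over the 33 members and of 0.13 over all tested genes, of which the median level was lower. By library, 15 members had their highest value in 2'-FL replicate 2 and 9 in control replicate 2, while 10 had their lowest in control replicate 3 and 9 in control replicate 1. All 15 members that peaked in 2'-FL replicate 2 were among the 23 with log2 fold changes above 0. The median deviation of the members from their own means was 0.026, 0.021 and 0.0076 with 2'-FL and -0.043, -0.0054 and -0.033 in controls, on the log2 scale. Within 2'-FL replicate 2, the 18 members above their own mean had a median gene length of 3423 bases and the 15 below it of 1473 bases. Over the 33 members, Spearman's rho between deviation and gene length was 0.35 in that library, between -0.46 and 0.40 in the others and of opposite sign in 2'-FL replicate 3, at -0.35. The part of gene length in the results was not tested.

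**Figure D3:**
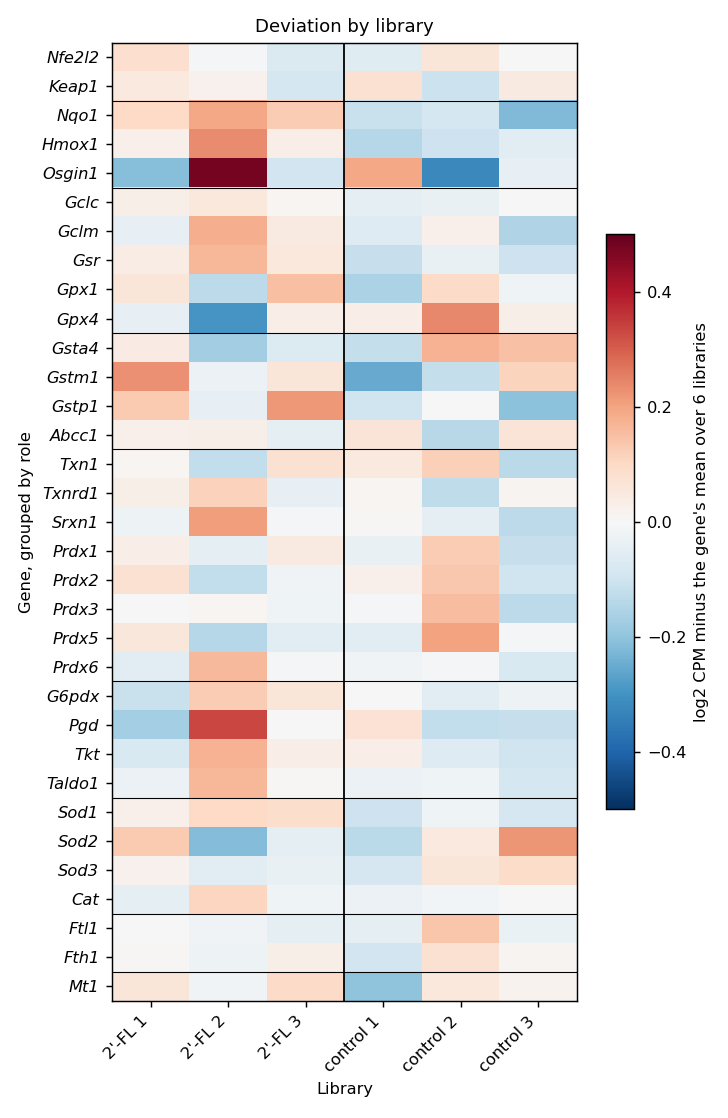
Deviation of log2 CPM from the mean of each gene over the 6 libraries, for the 33 tested genes grouped by role, with 2'-FL libraries left of the line and controls right of it. Nqo1 is above its mean in all 3 treated libraries and below it in all 3 controls, whereas Pgd and Osgin1 are highest in 2'-FL replicate 2 and below their means in 2'-FL replicate 1.

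Leaving out 2'-FL replicate 2 lowered the median log2 fold change of the members from 0.06 to 0.02, with 21 of 33 above 0, beside a median of -0.00 over all genes. In that fit Nqo1 stood at 0.25 in place of 0.28, Gsr at 0.13 in place of 0.17, Hmox1 at 0.13 in place of 0.20 and Sod1 at 0.13 in place of 0.14. Gstp1 stood at 0.27 and Gpx1 at 0.13, both higher than with all libraries. Smooth muscle markers also had their highest sum in this library, at 486 CPM, as did the simple epithelial keratins, at 1259 CPM, and the fibroblast markers, at 8313 CPM. Their part in the values of the members was not tested.

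Beyond the members, 111 other genes of the pathway, listed by role, also differed little between the groups. Of these, 97 were tested, 60 lay above 0 and 37 below, and the median log2 fold change was 0.04. The edgeR test, the DESeq2 Wald test and limma-voom each called 0 of the 97, with 10 at an unadjusted edgeR p under 0.05, of which 6 were higher and 4 lower. Over all tested genes these shares were 3.36% higher and 4.54% lower. All 2'-FL libraries lay above the controls for 8 of the 97 and below them for 5, against 6.74% and 6.31% of all tested genes, so that these counts lie near the background. The 14 untested genes had at most 45 counts over the 6 libraries.

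In each role the gene with the smallest p on either side is named here. Among regulators, Nfe2l3, a relative of NRF2, had a log2 fold change of 0.30 ± 0.13 (SE), which was 0.16 without 2'-FL replicate 1 and 0.18 without control replicate 1. Mafg, a small MAF partner, had -0.11 ± 0.06 (SE), and -0.07 without control replicate 3. Among genes of glutathione supply, the secreted peroxidase Gpx3 stood at 2.01, 2.58 and 3.20 CPM with 2'-FL and at 1.06, 1.64 and 1.39 CPM in controls, at 0.92 on the log2 scale with an SE of 0.32 and an edgeR adjusted p of 0.502. Its groups did not overlap, at a mean level of only 1.98 CPM. Gpx8, a peroxidase of the endoplasmic reticulum, stood at 68.2, 56.9 and 69.2 CPM with 2'-FL and at 74.1, 76.2 and 70.6 CPM in controls, and so was lower in all 3 treated libraries, at -0.19 ± 0.08 (SE). Without 2'-FL replicate 2 it had -0.10.

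Among enzymes that conjugate or reduce reactive compounds, the aldo-keto reductase Akr1b8 had a log2 fold change of 0.20 ± 0.08 (SE) and Ugdh, which makes UDP-glucuronate, had -0.16 ± 0.07 (SE). Txnip, the inhibitor of thioredoxin, had the smallest p of all 97 genes. It stood at 120.4, 103 and 117 CPM with 2'-FL and at 142, 143 and 130.2 CPM in controls, and so was lower in every treated library. The log2 fold change of Txnip was -0.29 ± 0.07 (SE), with an adjusted p of 0.309 by edgeR and 0.0885 by DESeq2. Thioredoxin, which TXNIP is known to antagonise, and its reductase were level as given above. The stress-induced sestrin Sesn2, which supports peroxiredoxin recycling, had 0.14 ± 0.06 (SE).

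For NADPH supply, malic enzyme Me1 had a log2 fold change of 0.17 ± 0.08 (SE), and 0.07 without 2'-FL replicate 2. Pgls, of the pentose phosphate pathway, had -0.02 ± 0.09 (SE). The mitochondrial transhydrogenase Nnt, chosen after its values were seen, averaged 0.821 CPM over the 6 libraries, and another row of that name was at 0. Among haem and iron genes, the haem transporter Slc48a1 stood at 92.5, 91.9 and 91.96 CPM with 2'-FL and at 75.1, 88.1 and 84.1 CPM in controls, at 0.16 ± 0.07 (SE). The iron exporter ferroportin, Slc40a1, stood at 3.97, 3.15 and 3.80 CPM with 2'-FL and at 5.10, 4.69 and 5.20 CPM in controls, and was lower in all treated libraries at -0.46 with an SE of 0.20 and an edgeR adjusted p of 0.590. In the metal response, the zinc exporter Slc30a1 had 0.11 ± 0.11 and the factor Mtf1 had -0.15 ± 0.09 (SE). Of superoxide sources and their partners, the copper chaperone Ccs had 0.04 ± 0.09 and the NADPH oxidase organiser Noxo1, under 1 CPM, had -0.76 ± 0.47 (SE).

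**Figure D4:**
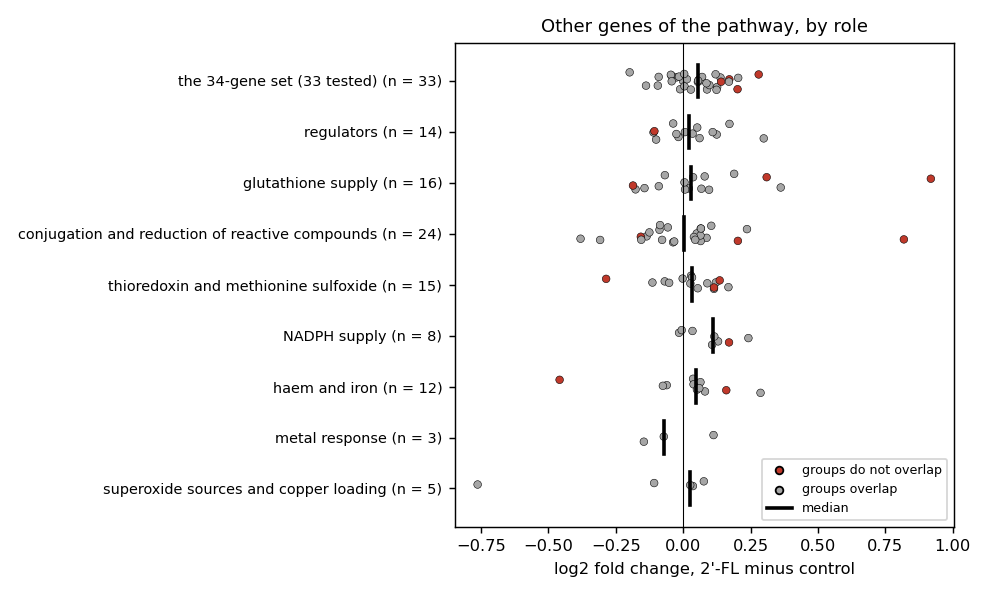
log2 fold change (2'-FL minus control) of the 33 tested members and of 97 other tested genes of the pathway by role, 1 point per gene, with the median of each role as a bar and red points where the groups do not overlap. The role medians of the other genes lie between -0.07 and 0.11, and the points farthest out on either side, such as Gpx3 at 0.92 and Noxo1 at -0.76, are genes of low level.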

How the data were processed

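RNA came from a Qiagen RNeasy mini kit and the libraries from the NEBNext Ultra II RNA kit, per the labels' protocols. Per the submitters' processing notes, the build was GRCh38 and the tools were Bowtie2 (given as version 2.7.3a), FastQC 0.11.9 and bcl2fastq. The identifiers are mouse, and 98.33% of those found in GENCODE M21 (GRCm38) have the same start and end there, so coordinates are given on GRCm38. The authors deposited raw read counts per gene, not normalized, 1 file per library.

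Libraries were grouped by title. In R 4.3.3, edgeR 4.0.16 was used with filterByExpr (minimum count 10), TMM factors and the quasi-likelihood test, over all genes, with Benjamini-Hochberg adjustment and a threshold of 0.05. Each SE is the log2 fold change over the root of its F value. The script was tested on simulated data, where at the same threshold it recovered 22% of changes of 1.25-fold and 80% of changes of 2-fold. Nqo1, the tested member with the highest log2 fold change, had a ratio of means of 1.21. Pairs of libraries differed by chi-square statistics of 5.26 to 19.1 per gene, so each was counted once. Alternatives were other scalings and filters, DESeq2 1.42.0, limma-voom (limma 3.58.1), robust estimation, a replicate block and each library left out. Depth limits low genes: 0 counts in all libraries allow 0.0231 CPM (3 counts).

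Members and lists were chosen with earlier results of these data known. Values per library are given for the 10 members with the smallest p, the 8 most abundant, 6 fixed ones (Nfe2l2, Keap1, Gclc, Gclm, Txnrd1, Srxn1) and any below the filter, and for Mt1, added after its values were seen. Of other pathway genes, those with the smallest p on either side in each role are named.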

Additional observations from a re-analysis of the deposited data

How the results depend on the processing

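In 16 alternatives to the fit, 0 members passed, with a lowest adjusted p of 0.347 over the 33 members tested in the main fit. Mt2 was fitted only without a filter on low counts. It did not pass there either, and its adjusted p is not part of that minimum. Over all genes 0 passed with all libraries, 158 without a filter on low counts, where the prior degrees of freedom were infinite, 37 by the DESeq2 Wald test, 5 with robust estimation, 1 with the replicate block, and 0 to 28 when 1 library was left out (21 without 2'-FL replicate 1, 28 without control replicate 2). Txnip passed without the filter (adjusted p = 0.0386). Same-numbered libraries did not deviate together (correlations of -0.117, -0.0676 and -0.0511), so the numbers are not taken to pair them. The members' median log2 fold change of 0.055 ranged from 0.017 (without 2'-FL replicate 2) to 0.062 when 1 library was left out, and was 0.039 without control replicate 1. It was 0.026 without both 2'-FL replicate 2 and control replicate 1, an alternative chosen after seeing the data. Of the 33 members, 19 kept their sign in all alternatives and 14 did not. Of those that kept it, leaving out 1 library still moved Gsta4 between -0.22 and -0.08, Gstm1 between 0.09 and 0.28, Prdx5 between -0.15 and -0.01 and Sod3 between -0.10 and -0.0043, and of other genes Slc30a1 between 0.05 and 0.21 and Noxo1 between -1.37 and -0.50. The cause of the sign changes was not tested.

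With 1 library left out the log2 fold change ranged from -0.042 to 0.039 for Nfe2l2, -0.065 to 0.030 for Keap1, -0.113 to 0.273 for Osgin1, -0.0069 to 0.128 for Gpx1, -0.059 to 0.044 for Abcc1, -0.089 to 0.030 for Txn1, -0.032 to 0.084 for Prdx1, -0.096 to 0.016 for Prdx2, -0.076 to 0.063 for Prdx3, -0.030 to 0.230 for Pgd, -0.184 to 0.0081 for Sod2, -0.023 to 0.059 for Cat, -0.073 to 0.018 for Ftl1, -0.041 to 0.044 for Fth1, -0.104 to 0.049 for Pgls and -0.024 to 0.093 for Ccs. Without both libraries it was -0.024 for Nfe2l2, 0.012 for Keap1, 0.045 for Txn1, 0.0070 for Prdx2, -0.029 for Cat and -0.027 for Fth1. By library totals only it was -0.0099 for Nfe2l2, -0.0047 for Abcc1 and -0.0064 for Fth1. Nfe2l2 had -0.0014 with a filter of 1 CPM in 3 libraries, -0.00042 by limma-voom and -0.00057 with the replicate block.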
